A study of Mus musculus with 12 samples.

Results

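The Cd209 lectin family comprised 7 genes, Cd209a to Cd209g, of the 56953 genes in the deposited tables. Members were chosen by symbol, and the family was selected on the deposited values themselves, since Cd209a had been seen to differ between libraries of the Ly6Clo group. Every library is therefore given separately, and the differences of Cd209a that involve this group are described without a test. The 12 libraries were made from bone marrow cells that had been sorted from female mice, 8 weeks of age, on a C57BL/6J background with the alleles Rank cre/+;R26.eYFP fl/+. In these mice, Cre recombinase expressed from the Rank locus removes a stop before the fluorescent reporter eYFP, so that macrophages of embryonic origin are marked, while hematopoietic stem cells of the adult do not express the Cre. Each of the 4 groups held 3 libraries. The eYFP+ group is made up of macrophages of embryonic origin and the eYFP- group of macrophages of adult origin, and monocytes were split by their surface Ly6C into a Ly6Chi and a Ly6Clo group. Macrophages of both groups were gated as F4/80hi, CD206+ and VCAM1+ cells. All 4 groups carry the same alleles, and no Cre-negative animals entered the comparisons. Whether the libraries of a group came from separate or pooled mice is not stated, and p-values measure only the spread between these libraries.

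Cd209 proteins are C-type lectin receptors, that is, membrane proteins that bind sugars with the help of calcium. They are the mouse relatives of human DC-SIGN, bind mannose- and fucose-containing glycans of microbes and of host glycoproteins, and take up what they bind. Cd209a is best known from dendritic cells and from monocytes with dendritic cell features, Cd209b (SIGN-R1) from macrophages of the splenic marginal zone and of lymph nodes, and Cd209d (SIGN-R3) from myeloid cells that recognise mycobacteria. Cd209c, Cd209e, Cd209f and Cd209g are less well studied members of the same group.

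The genes lie in 1 cluster on chromosome 8. In the RefSeq annotation of GRCm38.p6 the order of the members was Cd209a, Cd209e, Cd209d, Cd209b, Cd209c, Cd209f and Cd209g. Fcer2a, the low-affinity IgE receptor, and the lectin Clec4g lie beside Cd209a, and several pseudogenes separate Cd209c from Cd209f. Cd209g is read from the plus strand and the other 6 members from the minus strand. Coding sequences of the members were 64.7% to 79.1% identical for 20 of the 21 pairs. Cd209f and Cd209g stood apart from these with 89.2% identity (519 of 582 aligned bases), and their transcripts shared an unbroken run of 416 bases. Of all stretches of 50 bases in the Cd209f transcript, 38.1% also occurred in that of Cd209g, and no such stretch was shared by any other pair of members. Reads of Cd209f and Cd209g can thus be split or lost between both genes, and the ratio of their levels is uncertain, whereas the other members could be told apart.

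The start regions of Cd209a, Cd209f and Cd209g are shown because these genes made up nearly all of the family's signal and because Cd209f and Cd209g were both high in macrophages. The sequences are those of RefSeq for GRCm38.p6, a different build from the GRCm39 used for counting, written in the direction of the gene and ending before the first protein-coding exon of GENCODE M21. The Cd209a stretch covers chr8:3748985-3749234 (minus strand), with capitals marking CCGGAA, the core of many sites of ETS family transcription factors, as it reads on this strand. The Cd209f stretch covers chr8:4105836-4106014 (minus strand) and the Cd209g stretch chr8:4134486-4134651 (plus strand), with capitals marking the longest run that both printed stretches share.
Cd209a: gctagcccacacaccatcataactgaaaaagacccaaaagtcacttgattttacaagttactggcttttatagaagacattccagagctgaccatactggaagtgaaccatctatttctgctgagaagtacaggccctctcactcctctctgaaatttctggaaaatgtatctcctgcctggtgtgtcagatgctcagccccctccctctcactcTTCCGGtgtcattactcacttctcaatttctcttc
Cd209f: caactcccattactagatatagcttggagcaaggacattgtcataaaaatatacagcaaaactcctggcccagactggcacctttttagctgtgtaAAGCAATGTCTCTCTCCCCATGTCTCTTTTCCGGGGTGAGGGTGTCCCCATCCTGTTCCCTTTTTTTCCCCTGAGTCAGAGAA
Cd209g: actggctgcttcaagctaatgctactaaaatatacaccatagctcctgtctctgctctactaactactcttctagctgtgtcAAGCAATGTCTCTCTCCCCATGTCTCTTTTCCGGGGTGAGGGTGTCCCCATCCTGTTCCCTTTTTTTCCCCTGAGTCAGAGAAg

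The stretches of Cd209f and Cd209g were identical at 138 of 160 aligned bases (86.2%), including an unbroken run of 83 bases. This run reaches the end of the printed stretches to within 1 base, upstream of the RefSeq start, and the full start regions shared an unbroken run of 180 bases. Each of the 7 members matched 1 start region of 250 bases before and 50 bases after the start. CCGGAA, searched on both strands, was found in those of Cd209a, Cd209b, Cd209e, Cd209f and Cd209g and not in those of Cd209c and Cd209d. It occurred in 14.9% of all 32851 start regions of the same length. The motif TATAAA, likewise searched on both strands, was found in the regions of Cd209a, Cd209f and Cd209g and in 13.6% of all regions. In Cd209f and Cd209g it lies downstream of the printed stretch. Both motifs were picked after the sequences had been seen, and a match describes letters only.

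Total counts ran from 26390927 to 48618187 per library. Transcripts of 10 resident macrophage markers, among them Vcam1, Adgre1 (F4/80) and Mrc1 (CD206), summed to 22800 to 34180 TPM in the macrophage libraries and to at most 1481 TPM in the monocyte libraries. Ly6c2 was at 5809 to 6963 TPM in Ly6Chi monocytes and at most at 77.5 TPM elsewhere. Marker levels thus followed the labels. Ly6Clo replicate 2 stood apart: 45.8% of 12610 genes differed over 2-fold from the mean of the other 2 libraries of its group, against 18.5% and 15.2% in replicates 1 and 3. In eYFP+ replicate 1 this share was 23.5%, against 4.75% and 6.29% in the other eYFP+ libraries. In both libraries the deviation went with the GC content of the transcript, and values without 1 of them are given below for several results that they moved.

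The family split into a macrophage and a monocyte part. Values below are TPM (transcript counts scaled by transcript length and library, a level that can be compared between genes) unless counts are named. Cd209f and Cd209g together held 98.7% to 99.9% of the summed TPM of the 7 members in the macrophage libraries. Cd209a held 94.2% to 97.9% in the monocyte libraries. The sum over the family was 413 to 970 TPM in macrophages, 91.6 to 94.9 TPM in Ly6Chi monocytes, and 597, 2880 and 582 TPM in replicates 1, 2 and 3 of the Ly6Clo monocytes. Ly6Chi libraries thus held the lowest sums, all Ly6Clo libraries lay within or above the range of macrophages, and the genes behind the sums differed between macrophages and monocytes.

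**Figure D1:**
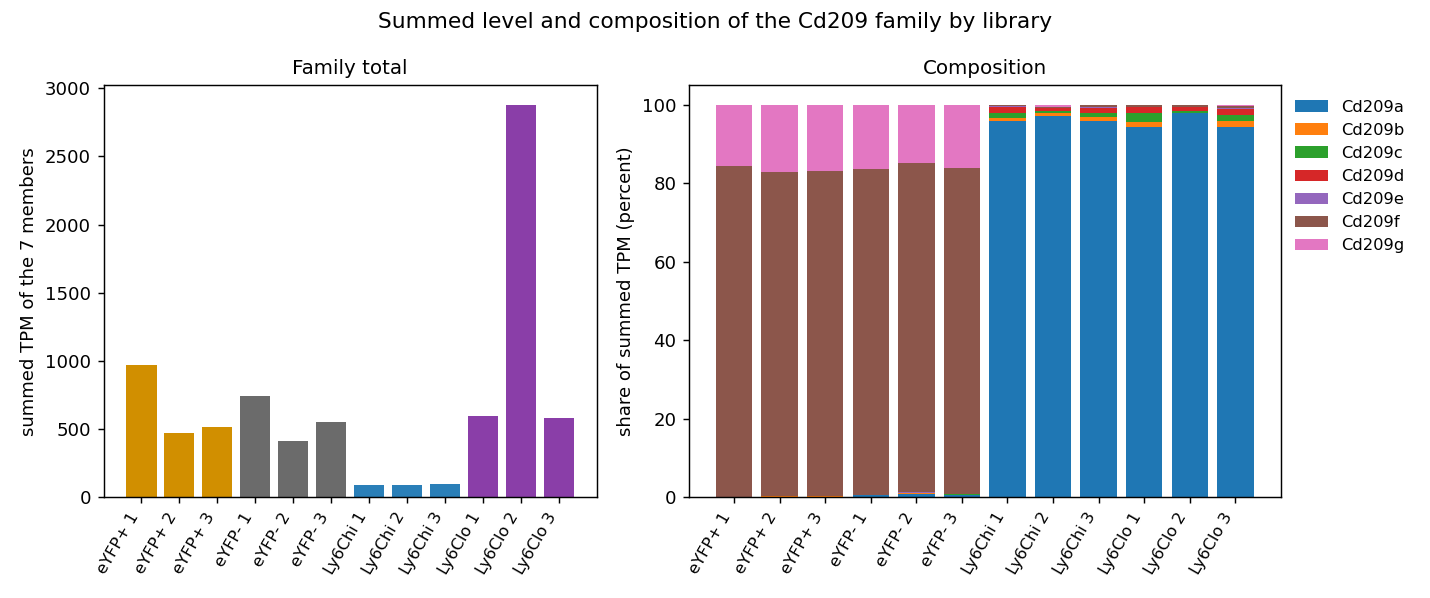
Summed TPM of the 7 members in each library (left, linear axis) and the share of each member in that sum in percent (right), with libraries named by group and replicate. Cd209f and Cd209g fill the bars of the macrophages and Cd209a those of the monocytes, and the sum of Ly6Clo replicate 2 (2880 TPM) exceeds the others.

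Cd209a was the most abundant member of the family in monocytes. In Ly6Clo monocytes its level was 562, 2820.3 and 549 TPM in replicates 1, 2 and 3 (19121, 68111 and 16690 counts). In Ly6Chi monocytes it was 89.4, 88.9 and 91.1 TPM. The Ly6Chi libraries lay within a narrow range, whereas replicate 2 of the Ly6Clo group was far above the other 2. In eYFP- macrophages Cd209a was at 3.74, 3.95 and 3.23 TPM (127, 136 and 110 counts). In eYFP+ macrophages it was at 0, 0.745 and 0.358 TPM (0, 22 and 13 counts). The order of the groups was therefore Ly6Clo, Ly6Chi, eYFP- and eYFP+, and no library of a group overlapped with the next. A count of 0 allows up to 3 counts at this depth, a limit that covers counting error only.

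Cd209f was the most abundant member in macrophages. It was at 817, 388 and 427 TPM in eYFP+ replicates 1, 2 and 3, and at 618, 347 and 458 TPM in eYFP- replicates 1, 2 and 3. Replicate 1 was the highest library in either group, and the groups overlapped. In Ly6Clo monocytes Cd209f was at 2.68, 13.9 and 3.17 TPM, and in Ly6Chi monocytes at 0.345, 0.346 and 0.592 TPM. Monocyte levels were thus far lower, with Ly6Clo replicate 2 again the highest among the monocytes. Cd209g was likewise high in macrophages and low in monocytes, with 153, 80.6 and 87.3 TPM in eYFP+ and 122, 61.6 and 88.4 TPM in eYFP- macrophages. In Ly6Clo monocytes Cd209g was at 0.708, 1.15 and 1.67 TPM. In Ly6Chi monocytes it was at 0, 0.502 and 0.050 TPM (0, 10 and 1 counts). The ratio of Cd209f to Cd209g was 4.82 to 5.63 in the 6 macrophage libraries, although the shared sequence makes its size uncertain.

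Cd209b, Cd209c and Cd209d were low throughout and highest in Ly6Clo monocytes. Cd209b, the marginal zone receptor, was at 7.70, 3.10 and 8.47 TPM there, and between 0.316 and 1.24 TPM in the 9 other libraries. Replicate 2, which had the most Cd209a, had the least Cd209b of its group. Cd209c was at 14.7, 14.3 and 9.44 TPM in Ly6Clo and at 1.19, 0.492 and 0.793 TPM in Ly6Chi monocytes, and at most at 0.130 TPM in macrophages, where 3 of 6 libraries had no count. Cd209d was at 8.25, 26.6 and 8.34 TPM in Ly6Clo and at 1.45, 0.511 and 1.40 TPM in Ly6Chi monocytes, and at most at 0.608 TPM in macrophages. Here replicate 2 was the highest Ly6Clo library, as for Cd209a. Cd209e was at 0.387, 0.988 and 1.73 TPM in Ly6Clo monocytes, at most at 0.113 TPM in Ly6Chi monocytes, and at most at 1.02 TPM in macrophages, where libraries of the same group ranged from 0 to 42 counts. No group stood clear of all others for Cd209e.

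**Figure D2:**
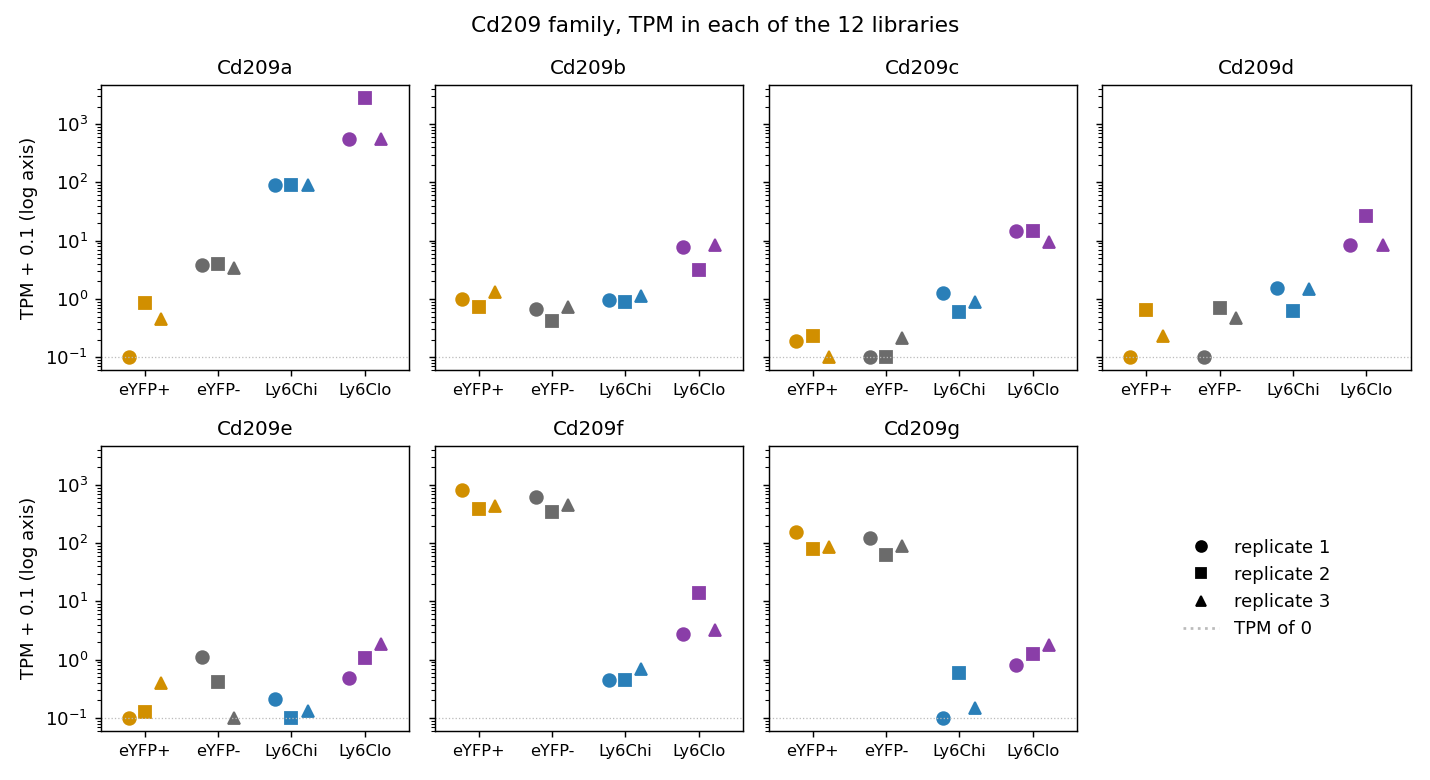
TPM of each member in the 12 libraries, 1 panel per gene, with groups on the horizontal axis and TPM + 0.1 on a log axis. Circles, squares and triangles are replicates 1, 2 and 3, and the dotted line marks a TPM of 0. Cd209f and Cd209g are high in both macrophage groups, Cd209a is high in both monocyte groups, and Cd209b, Cd209c and Cd209d reach their highest levels in Ly6Clo monocytes.

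The groups were compared on counts in 1 DESeq2 fit over all genes, with edgeR as a second test, and a gene was called at an adjusted p under 0.05 over all genes tested. All 7 members passed the filters on low counts, Cd209c and Cd209d mainly through the monocytes. In bulk RNA, fewer cells that express a gene and less RNA per cell cannot be told apart.

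Between macrophages of embryonic and adult origin, Cd209a was the only member called by DESeq2. Its level was lower in eYFP+ macrophages, with a log2 fold change of -3.33 ± 0.80 (± SE, here and below) at an adjusted p of 0.00349, with means of 10.2 and 103 normalized counts. Its counts did not overlap between the groups, but edgeR did not call it (adjusted p = 0.163). DESeq2 called 1 of 7 members where 2.04% of all genes were called, and edgeR called 0 of 7 where 0.334% were called, with 1 of 7 (Cd209a) at an unadjusted p under 0.05. With same-numbered libraries as pairs (replicate block), the difference of Cd209a was -3.77 with DESeq2 (adjusted p = 0.000298) and -3.63 with edgeR (adjusted p = 0.17). Cd209f and Cd209g, the members that macrophages express most, differed by 0.24 ± 0.64 and 0.27 ± 0.63 (adjusted p = 1 for both). Without eYFP+ replicate 1, these differences became -0.29 and -0.18, and that of Cd209a became -2.76 (adjusted p = 0.0102). The other 4 members were not called either, and all of them overlapped between the groups. By replicate number, Cd209b was at 39.1, 24.8 and 45.9 normalized counts in eYFP+ and at 24.6, 11.2 and 25.1 in eYFP- macrophages. It was thus higher in eYFP+ at each number, which none of the others was.

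Genes of other cell types also differed between the macrophage groups. Of the monocyte markers, 0 of 8 tested were called higher and 3 lower in eYFP+ macrophages, and of 11 dendritic cell markers 0 were called higher and 3 lower. Summed monocyte markers were nevertheless at 1640 to 2024 TPM in eYFP+ and at 1471 to 2055 TPM in eYFP- macrophages. Summed dendritic cell markers were at 46.2 to 79.3 TPM and at 79.8 to 105 TPM, respectively. Flt3, a growth factor receptor of dendritic cells and their progenitors, was at 8.88, 14.5 and 15.3 TPM in eYFP- libraries and at 0.013, 0.947 and 0.368 TPM in eYFP+ libraries. The 3 dendritic cell markers called lower by DESeq2 were Flt3 (log2 difference, eYFP+ minus eYFP-, -4.87), Xcr1 (-4.81) and Dpp4 (-3.20), of which edgeR called Dpp4 (adjusted p = 0.00671) but not Flt3 (0.0626) or Xcr1 (0.201). The other 8 were not called in either direction: the fitted values of Clec9a (-1.25) and Batf3 (-0.80) were negative, Cd207 was listed at 0 TPM in the eYFP+ libraries and at 0.573 to 1.003 TPM in the eYFP- libraries, Zbtb46 was at -0.02, and Siglech (1.72), Ccr7 (1.29), Ccr9 (0.37) and Itgax (0.29) had positive fitted values. Ly6c2 was at 1.70, 23.0 and 2.92 TPM in eYFP- libraries, of which replicate 2 had the highest level. Summed neutrophil markers were at 188, 1971 and 719 TPM in eYFP- replicates 1, 2 and 3 and at 103 to 189 TPM in eYFP+ libraries. Those of T and NK cells were at 43.5 to 90.4 TPM in eYFP- and at 5.86 to 13.1 TPM in eYFP+ libraries. Nkg7, a gene of cytotoxic granules, made up most of the eYFP- sums (38.3, 56.3 and 78.5 TPM) and was called lower in eYFP+ libraries. The other 4 genes of the list were not called, with log2 differences of -1.92 for Ncr1, -1.05 for Cd3g, 0.40 for Trac and 1.15 for Cd3e. Whether such cells contributed to the Cd209a difference was not tested.

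Among monocytes, 5 of the 6 tested members were called by DESeq2, where 8.62% of all genes were called, and 3 of 6 by edgeR, where 4.32% were called. Each called member was lower in Ly6Chi than in Ly6Clo monocytes. Cd209b fell by 2.85 ± 0.50 (DESeq2 adjusted p = 7.36e-07, edgeR 0.0108), Cd209c by 3.95 ± 0.60 (6.66e-09 and 0.0316) and Cd209f by 3.99 ± 0.70 (1.05e-06 and 0.0111). Cd209d (-3.71 ± 0.94, DESeq2 adjusted p = 0.00227, edgeR 0.102) and Cd209g (-2.72 ± 0.78, 0.00944 and 0.113) were called by DESeq2 only. The fitted difference had the same direction for all 6 tested members. Over all genes, DESeq2 called 789 higher and 1070 lower in Ly6Chi monocytes. Cd209e was at -4.40 ± 1.62 and missed the threshold (DESeq2 adjusted p = 0.0675). The means of Cd209a were 2759 and 41480 normalized counts, a log2 difference of -3.91 that is given without a test. Without Ly6Clo replicate 2, this difference was -2.59, that of Cd209d was -2.85 (DESeq2 adjusted p = 0.0471) and that of Cd209f was -2.74 (2.13e-05), while Cd209b was at -3.16 and Cd209c at -3.82. Cd209g was not called any more without Ly6Clo replicate 3 (adjusted p = 0.051), Ly6Chi replicate 1 (0.0884) or Ly6Chi replicate 3 (0.0859), and reached -5.65 without Ly6Chi replicate 2, the only library of its group with over 1 count.

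Most called markers of dendritic cells and macrophages were lower in Ly6Chi monocytes, as the family was. Of 11 dendritic cell markers, 1 was called higher and 5 lower in Ly6Chi monocytes, and their sum was 73.7 to 105 TPM in Ly6Chi and 280, 120 and 188 TPM in Ly6Clo replicates 1, 2 and 3. In Ly6Clo replicate 2, the library with the most Cd209a, Flt3 was at 7.08 TPM against 42.1 and 42.7 TPM in replicates 1 and 3. Xcr1 and Siglech had no count there. Itgax (CD11c) was at 20.6 TPM against 68.7 and 51.4 TPM. Other markers of the list did not follow this order: Ccr7 was at 13.9 TPM in replicate 2 against 51.2 and 9.13 TPM in replicates 1 and 3, Batf3 at 32.7 against 51.5 and 29.5 TPM, and Dpp4 at 43.4 against 48.0 and 43.2 TPM. Cd207 had no count in any Ly6Clo library. Genes of MHC class II presentation and of monocytes with dendritic cell features summed to 30230 and 26570 TPM in Ly6Clo replicates 1 and 3 and to 48180 TPM in replicate 2, against 3645 to 7082 TPM in Ly6Chi monocytes. The higher sum of replicate 2 came mostly from H2-Ab1 (24070 TPM against 8831 and 8311 TPM) and Cd74 (14340 against 8298 and 7491 TPM). H2-DMa (500.0 against 376 and 381 TPM), H2-DMb1 (486 against 372 and 375 TPM) and Tmem176b (472 against 465 and 373 TPM) were also highest there, and Tmem176a lay between the other libraries. The remaining 4 genes of the list were lowest in replicate 2, namely H2-Aa (4953 against 6861 and 5786 TPM), H2-Eb1 (3146 against 4687 and 3593 TPM), Ciita (5.53 against 46.1 and 35.96 TPM) and Klrd1 (42.6 against 76.8 and 74.5 TPM). Summed monocyte markers were also lowest in replicate 2, at 2664 TPM against 4314 and 4014 TPM. Csf1r, the receptor of the macrophage growth factor M-CSF, was at 159 TPM there against 1867 and 1719 TPM, Cx3cr1 at 69.5 against 354 and 265 TPM, and Ace at 48.7 against 182 and 121 TPM, while Treml4 was highest there, at 1727 against 787 and 911 TPM. Of 10 macrophage markers, 0 were called higher and 7 lower in Ly6Chi monocytes, with sums of 338 to 427 TPM in Ly6Chi and of 1481, 662 and 1187 TPM in Ly6Clo replicates 1, 2 and 3. Single macrophage genes ran differently from this sum, since Spic (72.3 TPM against 37.1 and 35.4 TPM) and Marco (3.76 TPM against 0.159 and 0.938 TPM) were highest in replicate 2. Summed markers of neutrophils were at 11560 to 17520 TPM in Ly6Chi and at 3742 to 11970 TPM in Ly6Clo monocytes, and S100a8 and S100a9 made up most of both. Elane was at 469 to 788 TPM in Ly6Chi and at most at 3.92 TPM in Ly6Clo monocytes. Mpo was at 266 to 427 TPM and at most at 8.97 TPM, respectively. Retnlg ran the other way, at 0.862 to 27.6 TPM in Ly6Chi and at 30.6 to 97.2 TPM in Ly6Clo monocytes. Ltf overlapped, at 177 to 305 TPM and at 212 to 725 TPM, respectively. Summed markers of T and NK cells were at 28.2 to 51.0 TPM in Ly6Chi and at 10.2 to 12.6 TPM in Ly6Clo monocytes, mostly from Nkg7. Those of B cells were at 28.3 to 34.8 and 54.0 to 140 TPM, nearly all from Cd79b, and Ms4a1 had no count in any Ly6Clo library. Those of endothelial and stromal cells were at 6.11 to 38.0 and 61.8 to 115 TPM. Pecam1 made up most of the Ly6Clo sums (48.1, 61.3 and 101 TPM), while Cdh5, a defining gene of endothelium, was at 0.0982, 0 and 0 TPM there, and the value of 38.0 TPM rested on Cxcl12 in Ly6Chi replicate 1 (28.6 TPM against 0.428 and 0.686 TPM). Markers of marginal zone macrophages, the cells that Cd209b is known from, summed to 19.6 TPM at the median in Ly6Chi and to 47.1 to 55.6 TPM in Ly6Clo monocytes, with 0 of 4 called higher and 3 lower in Ly6Chi monocytes. Siglec1 of this list ran the other way, at 7.34 to 10.6 TPM in Ly6Chi and at 0.250 to 7.65 TPM in Ly6Clo monocytes. The list did not follow Cd209b in macrophages, where it summed to 2300 to 3032 TPM and Cd209b was at most at 1.24 TPM. The part of any of these cell types in the differences between monocytes was not tested.

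Compared with Ly6Chi monocytes, both macrophage groups showed a switch between members. In eYFP+ macrophages 4 of 7 members were called by DESeq2 (24.5% of all genes) and 4 of 7 by edgeR (24.6%). In eYFP- macrophages 4 of 7 were called by DESeq2 (27.4% of all genes) and 4 of 7 by edgeR (23.2%). Both comparisons share the Ly6Chi libraries. Cd209f was higher by 10.27 ± 0.70 in eYFP+ (DESeq2 adjusted p = 7.85e-47) and by 10.03 ± 0.70 in eYFP- macrophages (1.44e-44). Cd209g was higher by 9.16 ± 0.76 (2.73e-31) and by 8.89 ± 0.76 (2.29e-29). Cd209a was lower, at -8.07 ± 0.80 in eYFP+ (3.5e-22) and -4.74 ± 0.76 in eYFP- macrophages (1.02e-08). Cd209c was lower as well, at -3.62 ± 0.80 (6.84e-05) and -4.59 ± 0.94 (1.15e-05), from a mean of 26.5 normalized counts in Ly6Chi monocytes. Cd209b, Cd209d and Cd209e were not called in either comparison. Cd209d was at -2.45 ± 1.02 in eYFP+ macrophages (adjusted p = 0.0639) and reached -4.13 without eYFP+ replicate 2 (0.00771). Without eYFP+ replicate 1, Cd209f was higher by 9.74, Cd209g by 8.72, and Cd209a was at -7.50 in eYFP+ macrophages.

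Compared with Ly6Clo monocytes, 5 of the 6 tested members were called by DESeq2 in eYFP+ macrophages (28% of all genes) and in eYFP- macrophages (26.3%). The counts by edgeR were the same, 5 of 6 in eYFP+ (23.3% of all genes) and 5 of 6 in eYFP- macrophages (21.9%). Cd209f was higher by 6.28 ± 0.64 in eYFP+ (DESeq2 adjusted p = 8.82e-21) and by 6.04 ± 0.64 in eYFP- macrophages (4.31e-19). Cd209g was higher by 6.45 ± 0.65 (2.13e-21) and 6.18 ± 0.65 (1.63e-19). Both genes thus separated macrophages from either kind of monocyte. Cd209b was lower at -2.87 ± 0.49 (8.07e-08) and -3.73 ± 0.50 (4.26e-12), Cd209c at -7.57 ± 0.79 (3.87e-20) and -8.54 ± 0.92 (1.58e-18), and Cd209d at -6.16 ± 1.01 (1.6e-08) and -5.67 ± 0.98 (1.32e-07). Against Ly6Chi monocytes, Cd209b was at -0.02 ± 0.51 in eYFP+ macrophages, and the gap between these contrasts is the difference between the monocyte groups given above. The log2 difference of Cd209a, given without a test, was -11.98 in eYFP+ and -8.65 in eYFP- macrophages. Ly6Clo replicate 2 raised the size of both, with 91254 normalized counts against 16230 and 16954 in replicates 1 and 3. Without Ly6Clo replicate 2, Cd209f was higher by 7.48 and 7.24, and Cd209d lower at -5.35 and -4.85, in eYFP+ and eYFP- macrophages, respectively. Cd209c had a fitted value of -11.40 without eYFP- replicate 3, the only eYFP- library with a count of it, which gives no bound, and Cd209d was at -7.85 without eYFP+ replicate 2. Cd209e was not called in either comparison.

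**Figure D3:**
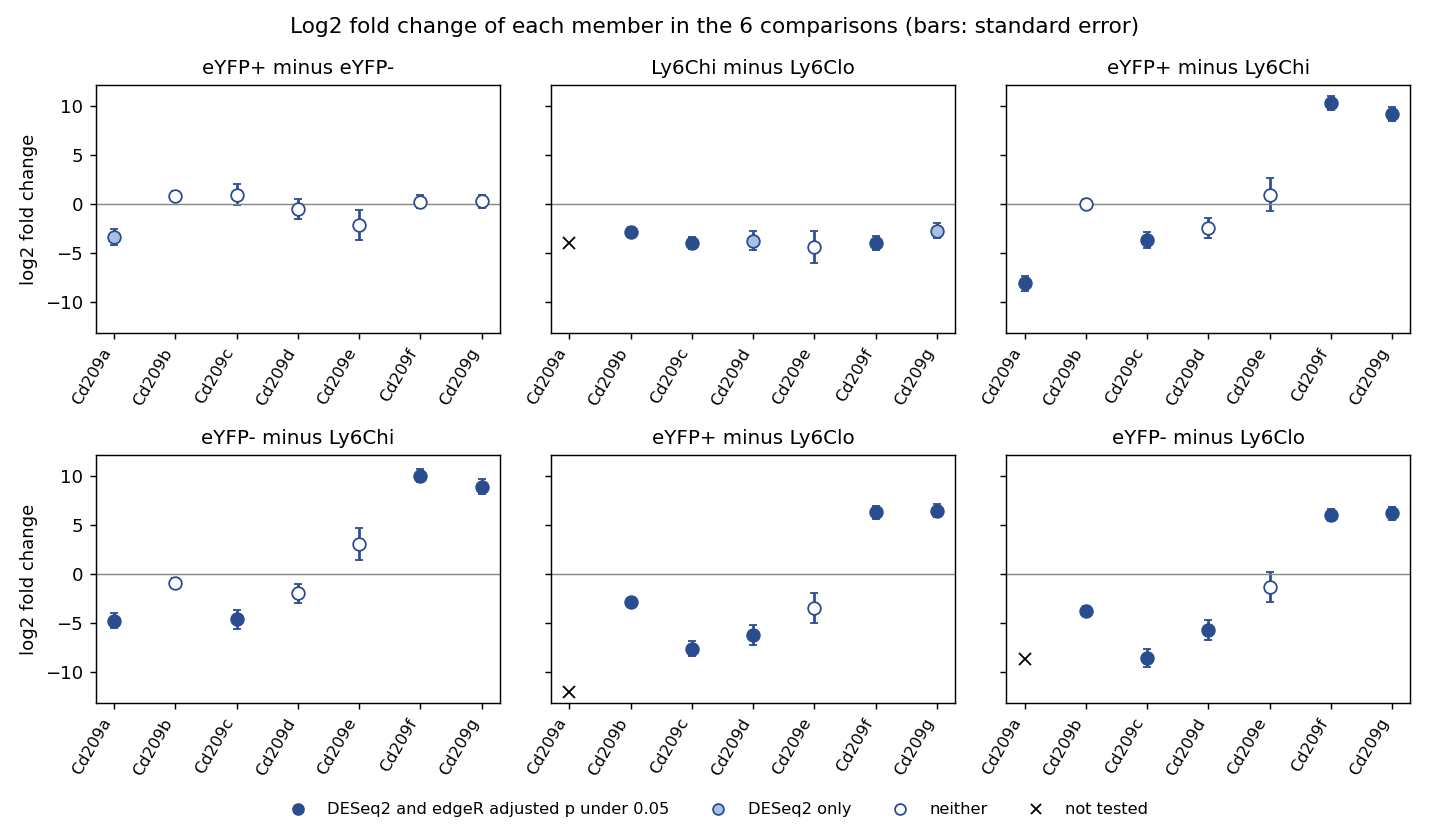
Log2 fold change of each member in the 6 comparisons, with the standard error as bars and the first group minus the second as the direction. Dark points passed an adjusted p of 0.05 by DESeq2 and edgeR, light points by DESeq2 only, open points by neither, and crosses (Cd209a against Ly6Clo) were not tested. Cd209f and Cd209g lie above 0 and Cd209a and Cd209c below 0 in the 4 comparisons of macrophages with monocytes.

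Members differed in how far Ly6Clo replicate 2 departed from the other 2 libraries of its group. Its ratio to their mean, on normalized counts, was 5.50 for Cd209a, the value that led to the choice of the family and that is given as a description. It was 5.08 for Cd209f and 3.46 for Cd209d. It was 1.29 for Cd209c, 1.04 for Cd209g, 0.989 for Cd209e and 0.417 for Cd209b. The TPM ratio of Cd209f to Cd209g was 12.1 in this library against 3.79 and 1.90 in replicates 1 and 3. Genes with 40 to 45% GC in the transcript had a median log2 ratio of 0.44 there, and those with 55 to 60% GC of -0.98. Cd209a has a transcript GC content of 44.3% and Cd209f of 52.9%, and the median of the class from 50 to 55% was -0.39. After correction of each library for GC content, the log2 ratio was 2.15 instead of 2.46 for Cd209a, 2.55 instead of 2.35 for Cd209f and 1.80 instead of 1.79 for Cd209d. What part GC content had in these values was not tested.

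In eYFP+ replicate 1, the ratio to replicates 2 and 3 was 2.34 for Cd209f and 2.12 for Cd209g, with transcripts of 52.9% and 55.5% GC. Genes with 50 to 55% GC had a median log2 ratio of -0.13 in this library, and those with 55 to 60% GC of -0.56. In eYFP- replicate 1 the ratios were 1.75 for Cd209f and 1.85 for Cd209g. Both genes thus had their highest values in replicate 1 of either group, and the part of GC content in this was not tested.

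**Figure D4:**
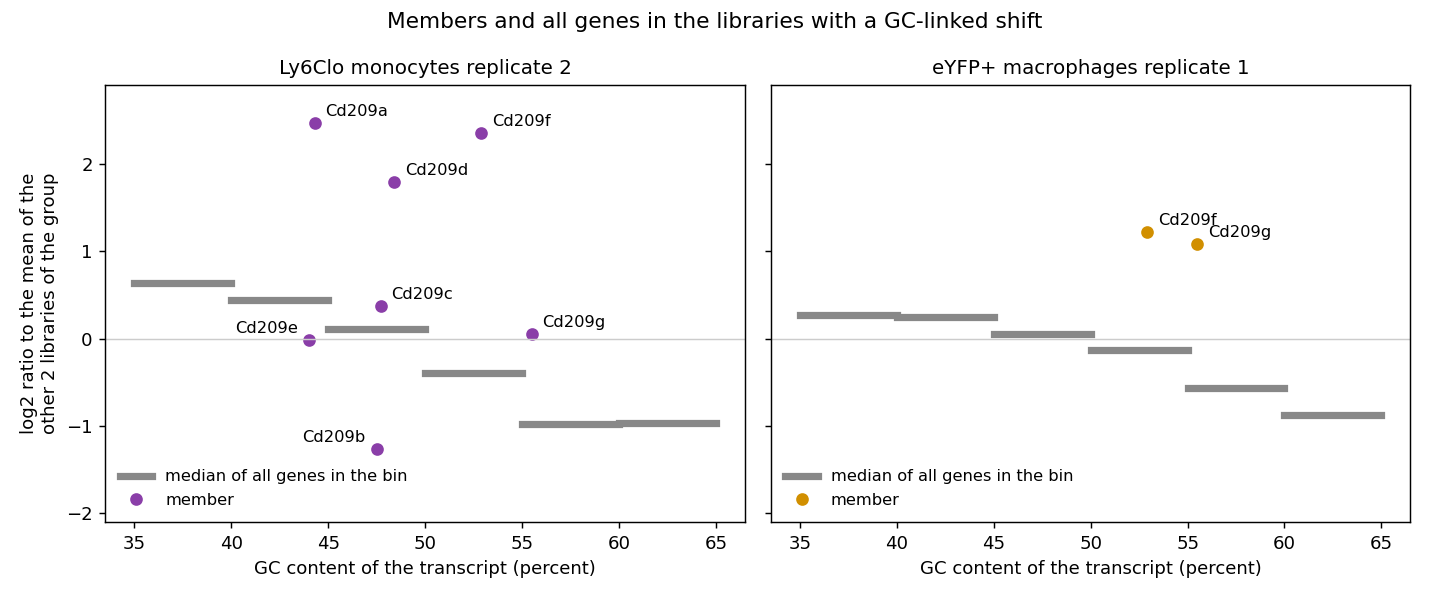
Log2 ratio of normalized counts in 1 library to the mean of the other 2 of its group, plotted against the GC content of the transcript, for Ly6Clo replicate 2 (left) and eYFP+ replicate 1 (right). Points are members, and grey bars are the medians of all genes in a GC class, with the outer classes drawn 5 points wide. In Ly6Clo replicate 2, Cd209a, Cd209d and Cd209f lie well above the medians and Cd209b below, and in eYFP+ replicate 1 Cd209f and Cd209g lie above them.

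Members could also be compared by their course over the 12 libraries, as Pearson correlations of log2(normalized count + 1). These values describe 12 libraries that share groups, depth and base composition. Cd209f and Cd209g had r = 0.972, and after removal of the group means r = 0.237. Cd209c and Cd209d had r = 0.90 and Cd209a and Cd209d r = 0.888, which became 0.327 and 0.646 without the group means. Cd209a and Cd209b had r = 0.639, and -0.511 without the group means; the 2 genes deviated in opposite directions in Ly6Clo replicate 2. Cd209a and Cd209f had r = -0.773, and 0.081 without the group means. Cd209a was higher in every monocyte library and Cd209f in every macrophage library. Among monocytes, both were higher in the Ly6Clo group.

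The genes nearest to a member were sought in the same way among all named genes with a mean of at least 50 normalized counts, which 6 of the 7 members reached as well (all but Cd209e). Nearest to Cd209a were Dcaf12 (r = 0.986), Tnip3 (0.982), Mirt1 (0.981), Hsd11b1 (0.975) and 4833407H14Rik (0.97). Nearest to Cd209f were Spic (0.996), Gbp8 (0.996), Cd79b (0.995), Fam213a (0.994) and Gpr34 (0.994). Spic encodes the transcription factor of red pulp and bone marrow macrophages that handle iron. It was at 3235, 1705 and 1863 TPM in eYFP+ and at 2094, 1520 and 1563 TPM in eYFP- macrophages, with replicate 1 highest in both groups as for Cd209f. In Ly6Clo monocytes Spic was at 37.1, 72.3 and 35.4 TPM, again with the highest level in replicate 2. Nearest to Cd209g were Hist1h2bc (0.992), Vkorc1 (0.987), Ccr3 (0.986), Fpr1 (0.986) and Npl (0.985), so that none of the 5 genes nearest to Cd209f was among them. For the lower members, the nearest genes were Camkmt for Cd209b (0.943), Gm3150 for Cd209c (0.986) and Cebpz for Cd209d (0.96). With group means removed, the nearest genes were Rab14 for Cd209a (0.961), Isg20l2 for Cd209b (0.988), Ddr1 for Cd209c (0.907), Sestd1 for Cd209d (0.918), Exosc1 for Cd209f (0.994) and Ubfd1 for Cd209g (0.885).

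Other lectins of the same class were examined for comparison. The list of group II C-type lectins and neighbours of the cluster named 9 genes, of which 8 were in the tables and 6 could be tested. Of these 6, 0 were called higher and 2 lower in Ly6Chi than in Ly6Clo monocytes (median -1.52, against 0.02 over all genes tested). These were Mgl2 (-3.43 ± 0.58, DESeq2 adjusted p = 4.22e-07) and Clec10a (-1.38 ± 0.26, 1.08e-05), both receptors for galactose-type sugars. Mgl2 was at 135, 119 and 92.3 TPM in Ly6Clo monocytes, with no excess in replicate 2, and at 6.63 to 14.2 TPM in Ly6Chi monocytes. In eYFP+ against eYFP- macrophages 1 of 6 was called higher and 0 lower, again Mgl2 (2.14 ± 0.59, DESeq2 adjusted p = 0.0207, edgeR 0.22). Its level was 2.85, 14.7 and 3.55 TPM in eYFP+ and 0.825, 2.41 and 1.70 TPM in eYFP- macrophages, which did not overlap. Mgl2 and Cd209a thus had their highest levels in the same group but were called by DESeq2 in opposite directions between the macrophage groups. Clec4g, a neighbour of Cd209a, was at 3.19, 3.76 and 0.982 TPM in Ly6Clo monocytes, and had no count in any eYFP+ library. Fcer2a, the other neighbour, stayed at or below 1.79 TPM in all libraries.

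Mrc1, the mannose receptor CD206, binds mannose as the Cd209 proteins do and was a sorting marker of the macrophages. It was at 910, 1217 and 1820 TPM in eYFP+ macrophages and at 344, 1271 and 530 TPM in eYFP- macrophages, and these groups overlapped (0.95 ± 0.50, adjusted p = 0.609). Monocytes had 5.72 to 47.0 TPM of Mrc1. The other 3 genes of the mannose receptor family, Mrc2, Ly75 and Pla2r1, stayed at or below 2.34 TPM in every library.

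Reported ligands and signalling partners of DC-SIGN differed in the groups as well. Of 9 genes listed, 8 could be tested. In eYFP+ against eYFP- macrophages 0 were called higher and 3 lower (median -0.14, against 0.05 over all genes tested). Lsp1, a cytoskeletal protein that associates with DC-SIGN, was at 5.75, 5.15 and 11.4 TPM in eYFP+ and at 49.8, 72.6 and 76.2 TPM in eYFP- macrophages (-3.13 ± 0.32, DESeq2 adjusted p = 1.84e-18, edgeR 0.00174). In monocytes Lsp1 was at 1851 to 2509 TPM. Icam2, a ligand of DC-SIGN, was lower in eYFP+ macrophages (-2.09 ± 0.30, 8.24e-09), and Ceacam1, another ligand, was lower too (-1.52 ± 0.45, DESeq2 adjusted p = 0.0354, edgeR 0.161). These genes and Cd209a shared the order of their levels, namely highest in monocytes, then eYFP- and then eYFP+ macrophages. In Ly6Chi against Ly6Clo monocytes 1 of 8 was called higher and 1 lower (median 0.09). In eYFP+ macrophages against Ly6Chi monocytes 1 was called higher and 3 were called lower, and the counts were the same for eYFP- macrophages. The gene called higher was Icam1, at 200 to 260 TPM in macrophages and at or below 89.0 TPM in monocytes. Syk, a kinase in the signalling of such lectins, was at 30.9 to 111 TPM and was not called in any comparison.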

How the data were processed

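Sorted bone marrow cells of 4 groups with 3 libraries each were measured by RNA sequencing (full-length cDNA, paired reads). Per the labels and the study's methods, the authors demultiplexed reads with bcl2fastq 2.20.0.422, trimmed and error-corrected them, removed ribosomal RNA, mapped them to GRCm39 and counted unambiguous pairs per Ensembl gene with featureCounts. Use of strand is not stated. Counts were deposited as whole, unnormalized numbers, and TPM values, which the authors derived per transcript length, were deposited beside them. A table of variance-stabilised values was not used. Library totals of 26390927 to 48618187 counts set the precision, and 14020 of 56953 genes had no count. Members, lists and tests were chosen with earlier results of these data known.

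Counts were fitted once over 12 libraries with DESeq2 1.42.0 in R 4.3.3 (median-of-ratios scaling, Benjamini-Hochberg adjustment within each of 6 comparisons, threshold 0.05). edgeR 4.0.16 (quasi-likelihood, TMM, filterByExpr) was run beside it. Normalized counts are counts divided by the DESeq2 size factor. Alternatives were TMM scaling, a minimum of 10 counts in 3 libraries, DESeq2 with independent filtering or the Cook cutoff switched off, the replicate number as block, 6-library fits, limma 3.58.1 on log2(TPM + 1) and log2(TPM + 0.1), correction for transcript GC content (known for 96.4% of tested genes) and leaving out each library. Scripts were tested on simulated data. All 7 members passed the filters on low counts, from which nothing is read. Cd209a was not tested against the Ly6Clo group. Over 2000 abundant genes, deviations of same-numbered eYFP+ and eYFP- libraries correlated with r = 0.458, 0.338 and 0.151, so that these numbers were treated as pairs in the blocked fits; no label states a shared animal or day. Named genes are the members, the genes of preset lectin, ligand and marker lists, and the 5 genes nearest to a member in correlation. GRCm38 references gave sequences and locus order, and no coordinates were converted. The result of 1 gene of the ligand and partner list is not reported here.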

Additional observations from a re-analysis of the deposited data

How the results depend on the processing

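In the comparison of eYFP+ with eYFP- macrophages, 1 member was called by DESeq2 and 0 by edgeR, by edgeR with the replicate block and by the 3 limma fits on TPM, where Cd209a differed by -1.80 (log2(TPM + 1), adjusted p = 0.119) and -3.46 (log2(TPM + 0.1), adjusted p = 0.0525). This difference ranged from -2.76 to -4.35 with 1 library left out, at adjusted p of 0.000454 to 0.0371, and was -3.36 (adjusted p = 0.00131) after the GC correction. In the comparison of Ly6Chi with Ly6Clo monocytes, 5 members were called by DESeq2, 3 by edgeR, 2 by edgeR with the replicate block and 3 by limma without a filter on low values. Over all genes, DESeq2 called 439 and edgeR 64 in the first comparison, and 1859 and 829 in the second. The numbers of members called were within 1.5 times the DESeq2 number in the other 64 alternatives and in all 36 fits without 1 library.

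Directions turned for differences that had passed no test. With 1 library left out, eYFP+ minus eYFP- ran from -2.18 (without eYFP+ replicate 2) to 0.20 (without eYFP- replicate 2) for Cd209d, and was 0.06 without eYFP+ replicate 1. It ran from -0.29 to 0.57 for Cd209f and from -0.18 to 0.63 for Cd209g, lowest without eYFP+ replicate 1 and highest without eYFP- replicate 1. For eYFP+ macrophages minus Ly6Chi monocytes, Cd209b turned to 0.02, 0.03 and 0.02 in the limma fits and ran from -0.21 (without eYFP+ replicate 3) to 0.20 (without eYFP+ replicate 2) with 1 library left out, being 0.09 without Ly6Chi replicate 3. Cd209e ran from -1.91 (without eYFP+ replicate 3) to 2.57 (without Ly6Chi replicate 1). Calls gained included those of Cd209d in eYFP+ macrophages against Ly6Chi monocytes without eYFP+ replicate 2 (-4.13, adjusted p = 0.00771) and of Cd209e against Ly6Clo in 6-library fits (adjusted p = 0.00882 for Ly6Chi and 0.0493 for eYFP+) and without eYFP+ replicate 3 (-6.31, adjusted p = 0.0145). The cause of these changes was not tested.

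The replicate block moved the DESeq2 number of members called only for eYFP+ macrophages minus Ly6Chi monocytes, from 4 to 5, through Cd209d (-3.39, adjusted p = 0.0151). In comparisons other than that of both macrophage groups, correlations of same-numbered libraries ran from -0.651 to 0.441, and 0 to 3 of 6 libraries correlated best with their own number, so that they share only a number. Low counts limit Cd209c, Cd209d and Cd209e in macrophages, Cd209a in eYFP+ macrophages, and all members but Cd209a in Ly6Chi monocytes. Libraries held 0 to 42 counts there.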
